A study of Ovis aries with 16 samples.

Results

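PTX3, the long pentraxin 3, was read in fetal sheep hypothalamus by every array probe named PTX3, which came to 2 of the 15008 probes on the array. The gene was chosen by measured values of these same arrays and belongs to the genes that the study picked from these samples for PCR. Its levels and differences are therefore given as a description, without a test. The 16 late-gestation Suffolk fetuses were chronically catheterized, and each contributed 1 array. Normoxia control fetuses (NC, n = 3) received intravenous saline and 30 min of normoxia. Normoxia plus ketamine fetuses (NK, n = 4) received intravenous ketamine, an anesthetic that acts against NMDA-type glutamate receptors, ahead of the same normoxia. Hypoxia control fetuses (HC, n = 5) received saline before 30 min of maternal ventilatory hypoxia, and hypoxia plus ketamine fetuses (HK, n = 4) received ketamine before that hypoxia. All groups then recovered in normoxia for 23.5 h, so that tissue was taken 24 h after the stimulus began. Most fetuses were twins and the labels name no littermates, so relatedness was not modelled.

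Pentraxins are secreted pattern recognition molecules of innate immunity. The short pentraxins, such as C-reactive protein, are made mainly by the liver, whereas PTX3 is made at the site of inflammation by macrophages, dendritic cells, endothelium, fibroblasts and glia. Its transcription is switched on by interleukin-1, tumor necrosis factor and Toll-like receptor ligands through NF-kappaB and AP-1, and the protein binds complement C1q, P-selectin and fibroblast growth factor 2. No other pentraxin was found under its name on the array, and the other 6 listed family members are not analysed here.

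The 2 PTX3 probes are printed because every PTX3 level below rests on their hybridization. Each is 60 bases long with a GC content of 45%, and the start positions given in the files place them on the same transcribed sequence target, from 778 to 837 and from 543 to 602, with 175 bases between them. The files mark both as unmapped and name no genome build, so no genome position is given. The sequences are as follows, in the orientation of the files.
A_70_P010836: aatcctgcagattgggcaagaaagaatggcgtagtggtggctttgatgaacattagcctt
A_70_P010837: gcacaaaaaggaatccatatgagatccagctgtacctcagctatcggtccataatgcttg
Since both read the same target, they are not independent measurements of the gene.

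The share of probes well above background ran from 71.7% to 80.6% over the arrays, and an array's 75th percentile of processed signal was 1238 to 1596 intensity units. Each of the 2 slides held arrays of all 4 groups. Levels are log2 of the processed signal relative to the 75th percentile of the same array, and the tested set was 12246 probes, each well above background on 3 arrays or more. The tissue label was checked by 10 hypothalamic peptide genes, among them OXT, POMC, NPY, SST and GNRH1, each of which was well above background on 15 or 16 of the 16 arrays. Of the listed anterior pituitary genes, 6 were on the array and only 4 of them were in the tested set. LHB was above background on 16 arrays and CGA on 14, but FSHB on only 4, so that transcripts of some of these genes were also present.

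Both PTX3 probes were well above background and unsaturated on all 16 arrays. With the brighter probe, A_70_P010836, the level was -4.12 in NC1, -4.63 in NC2 and -4.09 in NC3. In HC it was -1.06 in HC1, -0.66 in HC2, -3.53 in HC3, -0.74 in HC4 and -3.89 in HC5. HC1, HC2 and HC4 thus stood well above all other arrays, while HC3 and HC5 lay just above the NC range. The level was -3.95 in NK1, -4.29 in NK2, -4.13 in NK3 and -2.80 in NK4, so that NK4 alone among the normoxic fetuses left the range of the others. In HK it was -2.70 in HK1, -3.06 in HK2, -4.15 in HK3 and -3.39 in HK4, so that HK3 lay inside the NC range and the other HK arrays above it but well below HC1, HC2 and HC4. As processed intensity the NC arrays read 53.6 to 88.7 units and the HC arrays 93.8 to 1010, and the foreground exceeded the local background by 4.11-fold in the dimmest array and 56.3-fold in the brightest.

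The dimmer probe, A_70_P010837, gave much the same order. It read -4.76, -4.79 and -4.53 in NC1 to NC3, and -4.31, -4.61, -5.08 and -3.95 in NK1 to NK4. It read -1.78, -1.30, -3.89, -0.95 and -4.54 in HC1 to HC5, and -3.29, -3.80, -3.79 and -4.45 in HK1 to HK4. Again HC1, HC2 and HC4 were the 3 highest arrays, but HC5 lay below the highest NC array. Over the 16 arrays the levels of the 2 probes had a Pearson r of 0.958 and a Spearman rho of 0.809, and r was 0.906 without HC2 and HC4. The brighter probe exceeded the dimmer by 0.54 ± 0.37 on average (SD, n = 16) and did so on 15 arrays, the exception being HK3. Among all tested probes, A_70_P010837 was the one most correlated with A_70_P010836.

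**Figure D1:**
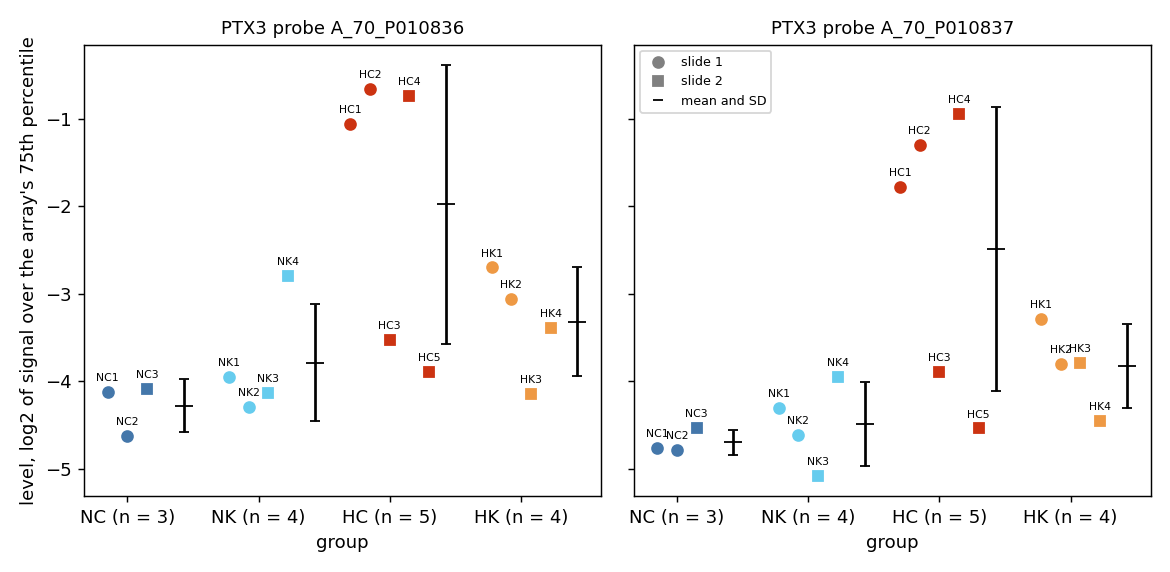
Level of PTX3 on each of the 16 arrays by group, for the 2 probes, as log2 of the processed signal over the array's 75th percentile. Circles are slide 1 and squares slide 2, the bar gives the mean and SD of the group, and with both probes HC1, HC2 and HC4 lie above all other arrays.

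The groups ranked NC, NK, HK, HC from lowest to highest with both probes. With the brighter probe the means were -4.28 ± 0.30 in NC (SD, n = 3), -3.79 ± 0.67 in NK (SD, n = 4), -3.32 ± 0.62 in HK (SD, n = 4) and -1.98 ± 1.59 in HC (SD, n = 5). The steps from NC to NK and from NK to HK were smaller than the SD of NK, and the step from HK to HC was smaller than the SD of HC. The dimmer probe averaged -4.70 ± 0.14 in NC, -4.49 ± 0.48 in NK, -3.83 ± 0.48 in HK and -2.49 ± 1.62 in HC (SD). PTX3 varied most within HC, where the median tested probe had an SD of 0.24 and only 1.63% of tested probes had a larger SD than A_70_P010836. In NC, 25.1% of tested probes had a larger SD than this probe. In bulk tissue, more cells that make a transcript and more of it per cell cannot be told apart, and likewise fewer cells of a type and less RNA per cell.

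To describe PTX3 after hypoxia without ketamine, HC was set against NC. PTX3 was higher in HC by 2.30 ± 0.71 log2 units (SE), or 4.93-fold, with the brighter probe and by 2.20 ± 0.68, or 4.61-fold, with the dimmer. Every HC array lay above every NC array with the brighter probe, as for 2.53% of tested probes, whereas 14 of 15 array pairs ran that way with the dimmer. The difference was 3.51 within slide 1, which held HC1 and HC2, and 1.37 within slide 2, which held HC3, HC4 and HC5 but a single NC array. Its size changed with the processing. The brighter probe differed by 1.52 after normexp correction with quantile normalization and by 1.35 in the deposited values, whose method is not stated. The part of background handling in this was not tested.

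Ketamine before hypoxia was described by HK against HC, which shares the HC arrays with the comparison above. PTX3 was lower in HK, with a difference of -1.35 ± 0.65 log2 units (SE) by the brighter probe and -1.34 ± 0.63 by the dimmer, or 2.54-fold and 2.53-fold. The arrays overlapped. With the brighter probe HC3 and HC5 lay within the HK range, with the dimmer HC3 lay within it and HC5 below it, and an HK array exceeded an HC array in 6 of 20 pairs with the brighter probe and in 7 of 20 with the dimmer. Within slides the brighter probe differed by -2.02 on slide 1 and -1.05 on slide 2. The difference was -1.82 without HC5 and -1.02 without HC2.

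Ketamine without hypoxia left smaller differences. In NK against NC, PTX3 differed by 0.49 ± 0.74 (SE) with the brighter probe and 0.21 ± 0.71 with the dimmer, and the former was 0.16 when NK4 was left out. Between the ketamine groups, HK against NK, it differed by 0.47 ± 0.69 and 0.66 ± 0.66 (SE). On slide 2 the brighter probe ran the other way, at -0.30, against 1.24 on slide 1, whereas the dimmer probe gave 0.39 and 0.92. HK against NC gave 0.96 ± 0.74 and 0.86 ± 0.71 (SE), with all 12 array pairs higher in HK by the dimmer probe and 10 of 12 by the brighter. The SEs come from 1 residual SD shared by all 4 groups, 0.97 for the brighter probe and 0.93 for the dimmer. That SD exceeded the SDs of NC, NK and HK and carries the wide spread of HC. HC is in none of these comparisons, so their SEs do not measure the spread of the groups compared. For the interaction, that is HK minus HC less NK minus NC, the values were -1.83 ± 0.99 and -1.55 ± 0.95 (SE). In the deposited values the brighter probe gave 0.18 for NK against NC, 0.22 for HK against NK, 0.40 for HK against NC and -1.13 for the interaction. The dimmer probe gave -0.01 there for NK against NC.

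**Figure D2:**
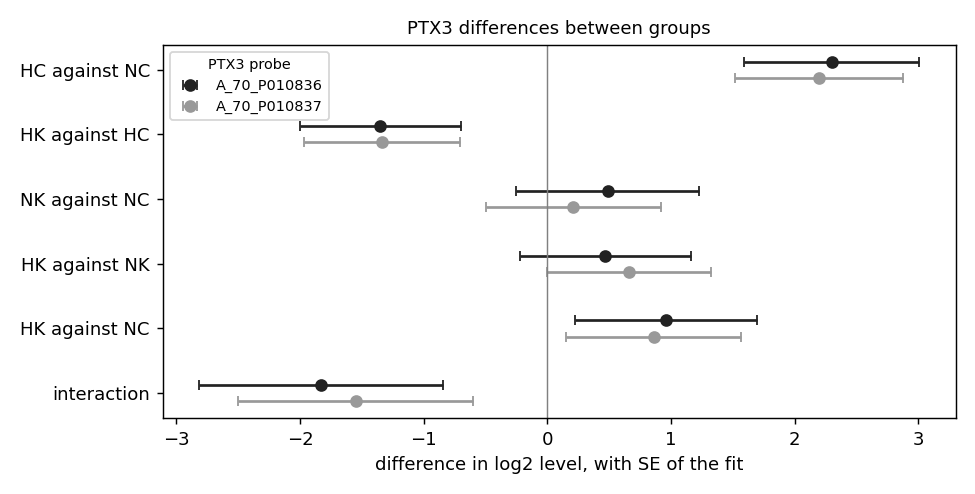
Difference in log2 level of PTX3 for 5 comparisons of groups and the interaction, for the 2 probes, with bars of 1 SE from the fit to 16 arrays. The largest values are those of HC from NC, 2.30 and 2.20, followed in size by the interaction, -1.83 and -1.55, and by HK from HC, -1.35 and -1.34.

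**Figure D3:**
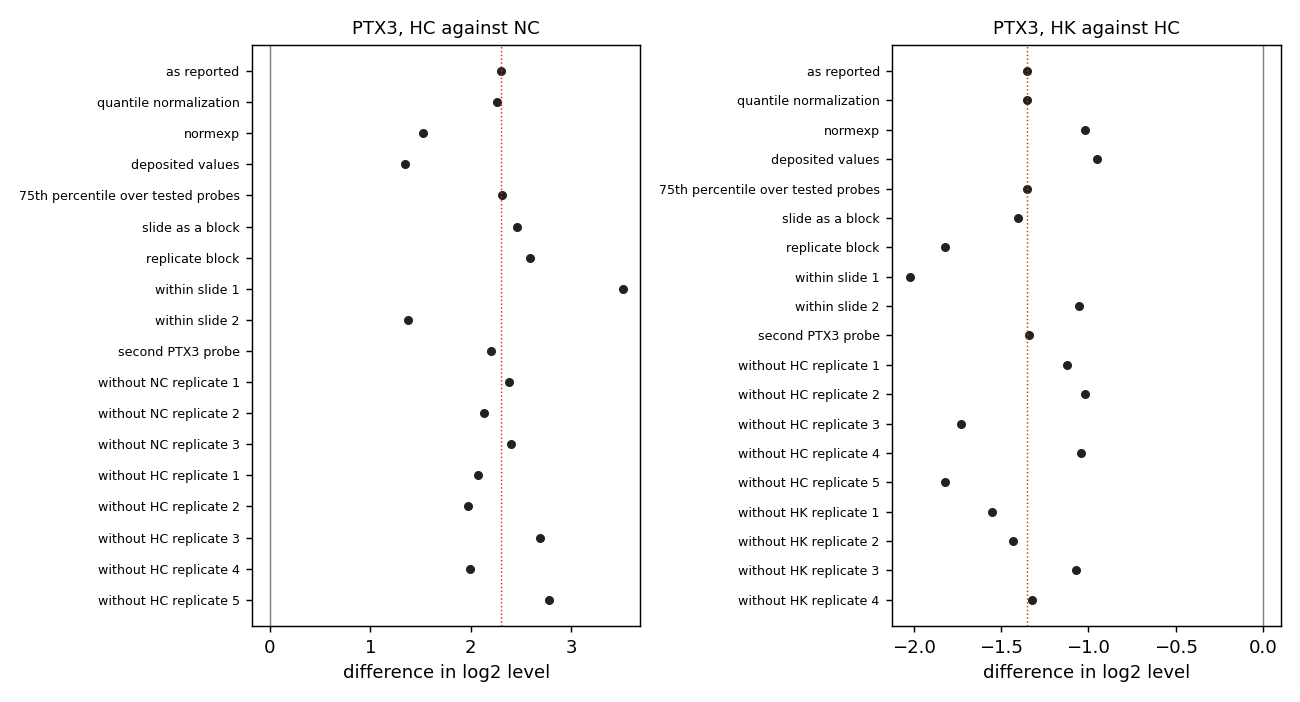
Difference in log2 level of PTX3 (A_70_P010836) in HC against NC and in HK against HC under each processing setting, within each slide, with the second probe and without each array. The dotted line marks the value as reported, and all points keep its sign, from 1.35 to 3.51 on the left and from -2.02 to -0.95 on the right.

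The genes around PTX3 were then examined through 5 lists that cover its inducers, their transcription factors, its ligands, other soluble pattern recognition molecules, and neutrophil chemokines and adhesion molecules. Of these, 40 genes had a tested probe, PTX3 left out, and each gene was read by its brightest tested probe. In HC against NC, 16 of the 40 were higher and 0 lower at the unadjusted p-value of 0.05 that the study's methods name, whereas 4.35% of all tested probes were higher and 3.67% lower. The median difference was 0.70 log2 units over the 40 genes and -0.02 over all tested probes. The lists were drawn up with earlier results of these data known, so the counts here and below are not independent evidence of direction. The study had also chosen 9 of the 40 for PCR on these samples. Of those 9, 8 were higher, with a median of 1.35, and of the other 31 genes 8 were higher, with a median of 0.35. After Benjamini-Hochberg adjustment of limma's p-values over all tested probes, none of the 40 passed (smallest adjusted p = 0.277). In 9 of the 40 every HC array lay above every NC array, against 2.53% of all tested probes. The count was 10 without NC2, without NC3 or without HC2. Single genes below are the 12 with the smallest unadjusted p in HC against NC or HK against HC.

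The list of inducing cytokines and Toll-like receptors also holds adaptors and IL1RN, an antagonist of interleukin-1, so not all its members induce PTX3. In it 7 of 18 genes were higher in HC, and 17 of 18 differences were above 0, with a median of 0.48. The pattern receptor TLR2, which recognizes bacterial lipoproteins, stood between -4.30 and -3.79 in NC and between -3.63 and -2.0 in HC, without overlap, a difference of 1.16 ± 0.30 (SE). Its second probe differed by 1.23 ± 0.33. TLR4, the receptor for lipopolysaccharide, differed by 0.79 ± 0.29, and all 5 HC arrays exceeded the NC arrays, although HC2 at -3.36 and HC4 at -3.81 stood far above HC1, HC3 and HC5. Its call was lost when only HC and NC were fitted. TNF, an inducer of PTX3, differed by 1.71 ± 0.62, with HC2 and HC4 highest at -2.12 and -2.30, a call lost without NC3. IL1B, the other classical inducer, differed by 1.09 ± 0.42, with HC4 at 0.17 and HC1 at -0.57 far above HC3 at -2.20, and it was not called without NC2, without HC1 or when only these groups were fitted. IL6 (1.08 ± 0.66) and IL18 (0.11 ± 0.14) did not pass. CD14, IL1RN and TNFRSF1A were also called, but kept the call in only 6, 5 and 4 of the 14 alternatives under which single calls were followed.

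Of the transcription factors and their regulators, 3 of 6 genes were higher and all 6 differences were above 0, with a median of 0.90. NFKBIA encodes the inhibitor of NF-kappaB that NF-kappaB itself induces. It read 0.48, 0.79 and 0.70 in NC1 to NC3 and 2.57, 1.89, 2.11, 2.76 and 0.82 in HC1 to HC5, a difference of 1.37 ± 0.36 (SE). HC5 alone was close to NC. CEBPB, a transcription factor of inflammatory genes, differed by 1.61 ± 0.57, with HC2 at -2.32 and HC5 at -5.06, the latter inside the NC range of -5.32 to -5.02. JUNB was the remaining call and kept it in 8 of 14 alternatives.

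Ligands and partners of PTX3 with a tested probe numbered 5, and 2 of them were higher in HC. SELP encodes P-selectin, the adhesion receptor for leukocytes that PTX3 binds. It was -4.98, -5.33 and -6.87 in NC1 to NC3, the last below background, and -0.22, -0.16, -2.16, 1.38 and -3.97 in HC1 to HC5, a difference of 4.71 ± 1.1 (SE). As with PTX3, HC5 and HC3 were the lowest HC arrays. FGF2, a growth factor that PTX3 binds, differed by 0.84 ± 0.23, and its second probe by 0.88 ± 0.22. Complement C3 and the receptor gene FCGR2B did not pass.

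Among chemokine and adhesion genes 3 of 7 were higher in HC, with a median of 2.42. PTGS2, the inducible cyclooxygenase, read -2.32, -2.47 and -2.25 in NC1 to NC3 and 0.65, 0.53, 0.08, 2.34 and -0.54 in HC1 to HC5, a difference of 2.96 ± 0.55 (SE). A dimmer PTGS2 probe differed by 0.92 ± 0.78 and did not pass. ICAM1, an adhesion molecule of leukocyte passage, differed by 2.42 ± 0.80, from -5.90 to -5.24 in NC and from -5.32 to -0.80 in HC, with HC5 lowest. Its NC2 value, -5.90, was below background. CXCL10 was the remaining call, kept in 11 of 14 alternatives. The brightest CXCL1 probe was saturated on all 16 arrays, so no difference is given for it. Of the 4 other soluble pattern recognition genes, LYZ alone was called, and it kept the call in 6 of 14 alternatives. Across the 12 genes described, HC5 and HC3 were each among the 2 lowest HC arrays for 9 genes. As for PTX3, sizes in HC against NC changed over the alternatives. The smallest was 0.55 for CEBPB, 0.59 for TNF, 0.89 for ICAM1 and 2.31 for SELP. It stayed nearer the value given for FGF2 (0.72), NFKBIA (1.19) and PTGS2 (2.39).

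In HK against HC, 0 of the 40 genes were higher and 9 lower, against 2.98% of all tested probes higher and 3.94% lower. The median difference was -0.49 over the 40 genes and 0.03 over all tested probes. Of the 9 PCR genes 5 were lower, and of the other 31 genes 4 were, with none past adjustment (smallest adjusted p = 0.707, limma). The count was 18 without HC5, 5 without HC4 or without HK3, and 4 in a fit of HC and HK alone. FGF2 differed by -0.73 ± 0.21 (SE), TLR2 by -0.83 ± 0.27, IL18, a cytokine of the interleukin-1 family, by -0.47 ± 0.13 and TNF by -1.63 ± 0.57, and each of these 4 calls held in all 15 alternatives under which single calls were followed. IL6 differed by -1.60 ± 0.60, carried by HC1 at -1.57 and HC4 at -1.82, with the other HC arrays between -4.68 and -4.53, and it was not called without HC4. PTGS2 (-1.14 ± 0.50) and NFKBIA (-0.75 ± 0.33) were lower but kept the call in only 8 and 9 of those 15. SELP (-1.80 ± 1.01), CEBPB (-0.92 ± 0.52), ICAM1 (-0.87 ± 0.74), TLR4 (-0.49 ± 0.27) and IL1B (-0.76 ± 0.38) did not pass. CD14 and C3 were the remaining 2 calls and kept them in 9 and 10 of 15.

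The other comparisons moved few of these genes. In NK against NC 1 of 40 was called, against 1.09% of all tested probes. It was SFTPD, surfactant protein D, which was higher in NK by 1.74 ± 0.60 (SE), a call lost without NC1. In HK against NK 2 genes were higher and 2 lower, against 8.7% of all tested probes in either direction, and the total was 8 without HK3. PTGS2 and SELP were higher in HK and IL18 and C3 lower. In HK against NC 3 genes, SELP, LYZ and PTGS2, were higher and IL18 was lower, against 6.83% of all tested probes, with a total of 2 without NC1 or without HK2. For the interaction 4 of 40 genes were called, all below 0, against 3.72% of all tested probes, and the count was 2 without NC1, 8 without HC5 and 7 without HK2.

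Of the marker lists, only the one for microglia and macrophages had genes called in HC against NC. Of its 14 genes, 2 were tested, ITGAM and CYBB, and both were higher in HC at the unadjusted threshold, which 4.35% of all tested probes passed in that direction, but not after adjustment (smallest adjusted p = 0.591, limma). ITGAM differed by 0.75 ± 0.33 (SE). CYBB cleared the background threshold in 3 of 5 HC arrays and 0 of 3 NC arrays, so no size is given for it. The HC arrays by themselves met the filter of 3 arrays, so its call is partly built in and adds no support. Their summed level, in units of the array's 75th percentile, was 0.028 to 0.0433 in NC, 0.0315 to 0.0492 in NK, 0.0488 to 0.115 in HC and 0.0498 to 0.0709 in HK. Within HC the sum was 0.0488 in HC1, 0.115 in HC2, 0.0663 in HC3, 0.0554 in HC4 and 0.075 in HC5, so HC3 and HC5, low in PTX3, were not low in this sum. ITGAM was above background on 13 arrays and CYBB on 4. The part of these cells in the PTX3 difference was not tested. None of the 5 endothelial, 5 astrocyte or 3 fibroblast and mural genes was called in HC against NC, and no neutrophil or neuron marker had a tested probe. In HK against NK all 3 fibroblast and mural genes were lower at the unadjusted threshold, as were 772 of all 12246 tested probes. COL1A2 differed by -0.79 ± 0.34 (SE), COL3A1 by -0.70 ± 0.32 and DCN by -0.92 ± 0.21. Their summed level was 4.54 to 7.36 in NK and 2.62 to 3.43 in HK. DCN was also higher in NK than NC, by 0.55 ± 0.23, and its interaction was -0.90 ± 0.30 (SE). Of all tested probes, 1.09% were called in NK against NC and 3.72% for the interaction. None of these passed adjustment (smallest adjusted p = 0.346, limma), and their part in the PTX3 levels was not tested.

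The named genes whose levels were most like those of PTX3 (A_70_P010836) over the 16 arrays were then listed, as a description, since the arrays share their group structure and HC1, HC2 and HC4 lie apart. Of 1309 named tested probes, 28 had a Pearson r above 0.8, and of 12244 tested probes 92 did, with a median r of 0.0066 and -0.0661. The highest was MTHFD2, a mitochondrial enzyme of folate metabolism, with an r of 0.908 and a Spearman rho of 0.70. FOS, a subunit of AP-1, followed with 0.899 and 0.791 by a probe above background on 13 arrays, and its r was 0.911 without the 2 arrays farthest from the median of PTX3. The brightest FOS probe, above background on 16 arrays, had a lower r of 0.828. LOC100037678, which has no further name here, had an r of 0.894, CXCL8, the neutrophil chemokine interleukin-8, 0.891, and PDXK, pyridoxal kinase, 0.889. ZFP36, which speeds the decay of cytokine transcripts, had 0.884, CEBPB 0.878 and MCL1, an inhibitor of apoptosis, 0.874. Without the same 2 arrays r was lower for each of these genes except FOS, from 0.726 for CEBPB to 0.882 for CXCL8, with MTHFD2 at 0.778. CXCL8 was above background on 6 arrays and ZFP36 on 3, so that most of their points are not measured levels. For ZFP36 these were HC1, HC2 and HC4, the arrays highest in PTX3. It met the filter only through them, so its high r is partly built in. A brighter CXCL8 probe, above background on 11 arrays, had a lower r of 0.755. MTHFD2 read -4.58 to -4.27 in NC and -3.12, -2.54, -3.45, -2.38 and -4.29 in HC1 to HC5, the same high arrays as PTX3 together with HC3.

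At the other end, PGD had the lowest r, -0.857, and PTCH1 had -0.753. Without HC2 and HC4, the 2 arrays left out above, PGD had -0.84 and PTCH1 -0.462. PGD encodes a dehydrogenase of the pentose phosphate pathway and PTCH1 the receptor of hedgehog ligands. The range of PGD was small, and it read 3.42 to 3.51 in NC and 3.20 to 3.51 in HC. When each array was taken as its deviation from its group mean, FOS (0.851), MTHFD2 (0.832), TIMP3 (0.832), ZFP36 (0.82) and CEBPB (0.806) had the highest r with PTX3, where FOS and MTHFD2 were read by other probes (A_70_P016317 and A_70_P045142) than above. The probes given above had 0.836 for FOS and 0.815 for MTHFD2. The value for ZFP36 again rests on HC1, HC2 and HC4, the only arrays where it was above background. TIMP3 encodes an inhibitor of matrix metalloproteinases. Its r over the levels themselves was 0.716, and 0.391 without the same 2 arrays.

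**Figure D4:**
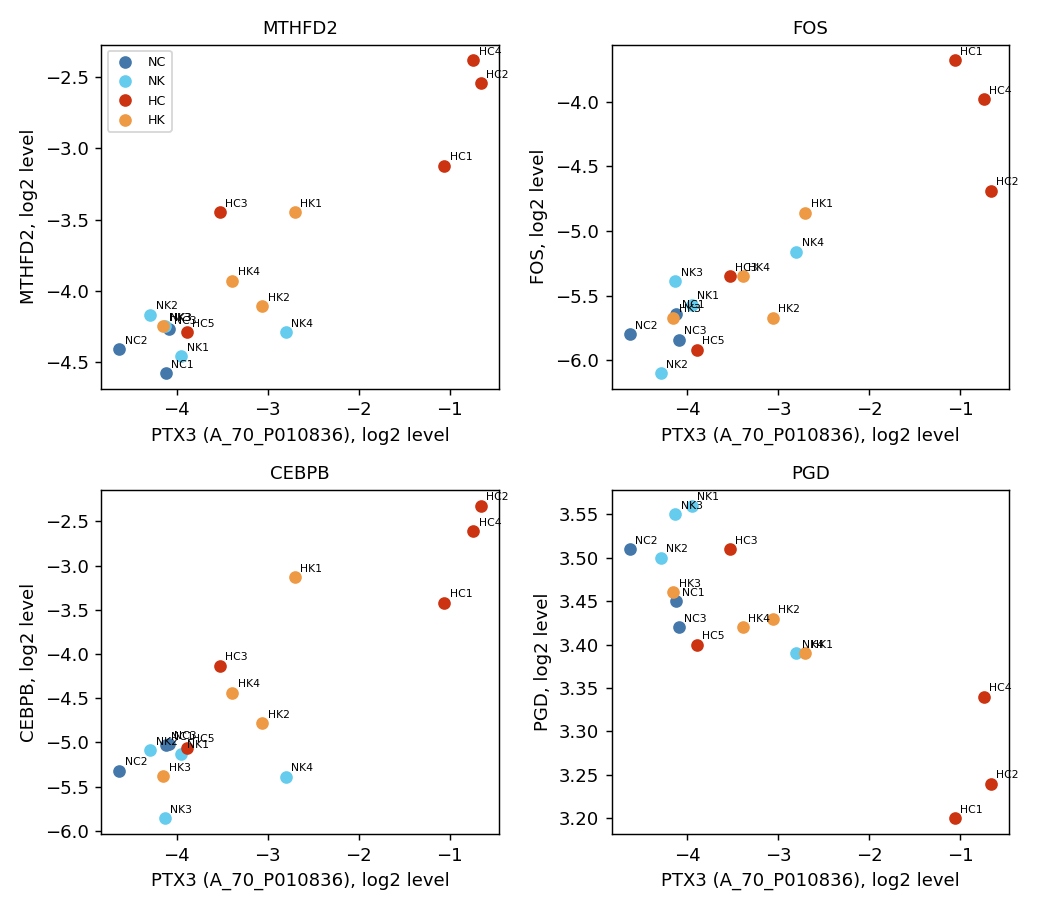
Log2 level of MTHFD2, FOS, CEBPB and PGD against that of PTX3 (A_70_P010836) on the 16 arrays, coloured by group. HC1, HC2 and HC4 lie at the far right of each panel, and the Pearson r are 0.908, 0.899, 0.878 and -0.857.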

How the data were processed

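Per the file headers, the authors' scanner output comes from Feature Extraction 10.1.1.1 and holds intensity values of 15744 spots for 16 one-colour Agilent sheep arrays, with background subtracted in the processed signal and no normalization between arrays. The authors also deposited log2 values of the same arrays with no stated method. These correlated best with the scanner signal of their own array on all 16 arrays, had array medians of 8.473 to 8.475, and served as an alternative. Control spots (536) and outlier spots (0.0801%) were left out, each array's 75th percentile was taken off after log2, and RefSeq sheep gene tables (ARS-UI_Ramb_v3.0) named 726 of 750 probes with a RefSeq accession. Of 15008 probes, 1656 carried a name and 89% none.

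A linear model of the 4 groups was fitted to 12246 probes and all 16 arrays with limma 3.58.1 in R 4.3.3, with empirical Bayes, two-sided tests, and Benjamini-Hochberg adjustment. The method was tested on simulated data. The number of arrays limits the precision. PTX3, the gene lists and the markers were chosen with earlier results of these data known. Named genes were PTX3, list members called in HC against NC or HK against HC (12 with values, in order of unadjusted p, an order set after the values were seen), and the genes most and least correlated with PTX3. A few members of these sets are counted but not named or drawn. Alternatives were quantile, normexp (offset 50) and deposited values, another percentile base, the second probe, slide and replicate blocks, single slides, no filter, the compared groups alone, probe means, and leaving out each array.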

Additional observations from a re-analysis of the deposited data

Results flagged for a closer look

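In 96 groups of 4 or 5 arrays examined for the genes named above, 4 had an array far from the others, where chance gives about 1 in 20. The gap of that array to the next, as a share of the group's range, was 0.893 for TNF in NK, where NK4 read -5.65 and the others -4.69 to -4.57. It was 0.907 for TNF in HK, where HK2 read -3.17 and the others -5.66 to -5.43. For TLR4 in HK it was 0.918, with HK2 at -4.62 and the others at -4.92 to -4.90. For NFKBIA in NK it was 0.85, with NK3 at 1.05 and the others at 0.60 to 0.66. Neither PTX3 probe had such an array in NK, HC or HK.

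The ketamine difference after hypoxia was lower than that after normoxia for 4 genes of the lists at an unadjusted p of 0.05 in limma's test of the interaction, with 3.72% of all tested probes called and the smallest adjusted p over the lists at 0.996. The interaction was -0.55 for IL18, -1.04 for TLR2, -0.85 for C3 and -0.94 for FGF2. IL18 and FGF2 were called in all 21 alternatives under which single calls were followed, TLR2 in 18 and C3 in 13. TLR2 lost its call with the deposited values, without NC1 and without HK3. The interaction of PTX3 was not tested.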

How the results depend on the processing

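By its brighter probe, PTX3 kept its direction in HC against NC, HK against HC, NK against NC, HK against NC and the interaction under every alternative run. The dimmer probe gave 0.21 in NK against NC and there 0 with normexp and -0.01 with the deposited values. In HC against NC the brighter probe differed by 3.51 within slide 1 and by 1.52 and 1.35 with normexp and the deposited values. In HK against NK the brighter probe turned to -0.30 within slide 2, whereas the dimmer gave 0.39 there. Leaving out 1 array gave ranges of 1.97 to 2.78 (HC against NC), -1.82 to -1.02 (HK against HC), 0.16 to 0.65 (NK against NC), 0.26 to 0.80 (HK against NK), 0.75 to 1.23 (HK against NC) and -2.31 to -1.50 (interaction). The number of list genes called ran from 10 to 17 in HC against NC without 1 array (16 with all), 5 to 18 in HK against HC (9 with all), 0 to 1 in NK against NC, 3 to 8 in HK against NK, 2 to 6 in HK against NC and 2 to 8 for the interaction. It was 4 in HK against HC and 3 in NK against NC when only the compared groups were fitted. In HK against NC it was 2 with normexp, with the deposited values and with probe means, and probe means gave 2 in NK against NC. The cause was not tested.

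Replicate numbers come from the labels, which do not say that they mark a shared litter, batch or day. Of 21 pairs with the same number, 15 but not all had a correlation of deviations over 0.1 (-0.06 to 0.35), and 9 of 16 arrays correlated best with their own number, so the numbers were not taken as pairs. In every group arrays 1 and 2 were on slide 1 and the others on slide 2, so same-numbered arrays also shared a slide. With a replicate block PTX3 differed by 2.59 in HC against NC and -1.82 in HK against HC. The genes called were 19 in HC against NC, 19 in HK against HC, 2 in NK against NC, 9 in HK against NK, 4 in HK against NC and 10 for the interaction. Only HC has a replicate 5, so HC5 had a block of its own and did not bear on these values. Leaving HC5 out without a block gave -1.82 and 18 genes in HK against HC.

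The levels rest on 3 to 5 arrays a group and on 2 slides. PTX3 in NC was 4.11 to 7 times its local background with the brighter probe, and the effect of background correction alone on such low levels was not tested.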
